A study of Homo sapiens with 6 samples.

Results

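Amino acid transporters of the plasma membrane were followed in KMS-27, a line of human multiple myeloma cells labelled as bone marrow, after silencing of Che-1. Che-1 is the RNA polymerase II-binding protein encoded by AATF. The 10 genes were chosen by name, and no threshold on their values was used: SLC7A5, SLC3A2, SLC7A6, SLC7A11, SLC43A1, SLC7A1, SLC1A5, SLC1A4, SLC38A1 and SLC38A2. All 10 were found among the 12075 genes with an FPKM (fragments per kilobase of transcript corrected for library size) and among the 16444 genes of the authors' spike-in table. The siChe-1 group had 3 libraries and carried the silencing label, and the siControl group had 3 libraries labelled control. Neither the siRNA sequences nor doses or times were given in the labels. The labels do not name separate cultures behind the libraries, so the p-values measure the spread between libraries, which may be technical.

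These carriers supply the amino acids that a plasma cell builds into antibody. SLC3A2 (CD98 heavy chain) is a single-pass glycoprotein that carries light chains to the cell surface. The light chains do the transport: SLC7A5 (LAT1) exchanges large neutral amino acids such as leucine for glutamine, SLC7A6 (y+LAT2) exchanges arginine and glutamine, and SLC7A11 (xCT) takes up cystine in exchange for glutamate. SLC43A1 (LAT3) passes branched chain amino acids without a heavy chain, and SLC7A1 (CAT1) takes up arginine and lysine. SLC1A5 (ASCT2) and SLC1A4 (ASCT1) exchange neutral amino acids with sodium, and SLC38A1 (SNAT1) and SLC38A2 (SNAT2) load the cell with glutamine and other small neutral amino acids. Several of these genes are known targets of MYC or of ATF4, the transcription factor of the amino acid response.

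Start-site windows are shown for the 3 genes on which the results turn most, SLC43A1 and SLC38A1, which fell relative to other genes, and SLC38A2, the neighbour and paralog of SLC38A1, which was not called. Each runs from 250 bases before to 50 bases after a RefSeq start, 300 bases in all, on the gene's strand (minus for all 3) of GRCh38.p14, and comes from RefSeq. The windows are chr11:57515653-57515952 for SLC43A1, chr12:46266467-46266766 for SLC38A1 and chr12:46372724-46373023 for SLC38A2. Capitals mark CACGTG, the E-box bound by MYC and MAX, in SLC43A1, and TGATGNAA, the core of the C/EBP-ATF response element, in SLC38A1. The SLC38A2 window holds neither. Sequence outside the start-site windows was not searched, so a window without a motif does not mean a gene without it.
SLC43A1: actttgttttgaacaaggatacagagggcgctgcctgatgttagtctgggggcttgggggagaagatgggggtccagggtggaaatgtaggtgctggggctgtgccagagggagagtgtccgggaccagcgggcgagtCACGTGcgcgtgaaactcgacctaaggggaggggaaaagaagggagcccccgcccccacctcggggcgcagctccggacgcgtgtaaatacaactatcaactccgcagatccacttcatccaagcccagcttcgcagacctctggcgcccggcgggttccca
SLC38A1: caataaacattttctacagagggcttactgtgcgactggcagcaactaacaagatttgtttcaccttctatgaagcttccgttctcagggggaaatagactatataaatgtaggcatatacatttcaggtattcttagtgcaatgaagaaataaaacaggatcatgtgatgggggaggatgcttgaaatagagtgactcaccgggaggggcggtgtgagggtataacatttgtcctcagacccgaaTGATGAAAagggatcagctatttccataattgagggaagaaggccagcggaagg
SLC38A2: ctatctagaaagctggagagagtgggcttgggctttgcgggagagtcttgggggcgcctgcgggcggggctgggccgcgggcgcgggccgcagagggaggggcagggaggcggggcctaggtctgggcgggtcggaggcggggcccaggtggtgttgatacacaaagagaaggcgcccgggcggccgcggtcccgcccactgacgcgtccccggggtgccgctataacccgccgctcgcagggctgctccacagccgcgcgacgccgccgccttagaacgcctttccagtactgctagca

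RefSeq start windows were matched by symbol for 9 of the 10 genes, 16 windows in all. Both motifs were searched on both strands, and no window of these genes held both. The second windows of SLC43A1 and SLC38A1 held neither. The window of SLC7A6, which was also called lower relative to other genes, held neither as well. CACGTG occurred in 3 of the 9 genes and 3 of the 16 windows, against 8.77% of 27305 genes and 7.26% of 35116 windows overall. TGATGNAA occurred in 5 of the 9 genes and 5 of the 16 windows, against 4.46% of all genes and 3.62% of all windows. The matches outside SLC43A1 and SLC38A1 are printed because they lie in genes not called relative to other genes. Up to 10 bases are given on each side, and a match to the other strand reads as its reverse complement. Those with CACGTG begin 130 bases before the start in SLC7A5 (chr16:87869458-87869757) and 50 bases before it in SLC1A5 (chr19:46787244-46787543). Those with TGATGNAA begin 37 bases after the start in SLC3A2 (chr11:62881449-62881748), 7 after it in SLC7A1 (chr13:29595639-29595938), 97 before it in another SLC1A5 window (chr19:46784765-46785064) and 7 before it in SLC1A4 (chr2:64989149-64989448).
SLC7A5, E-box: ccggacgacgCACGTGctccgagctg
SLC1A5, E-box: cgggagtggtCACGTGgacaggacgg
SLC3A2, response element: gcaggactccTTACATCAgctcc
SLC7A1, response element: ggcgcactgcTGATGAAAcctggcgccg
SLC1A5, response element: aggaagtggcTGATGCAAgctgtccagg
SLC1A4, response element: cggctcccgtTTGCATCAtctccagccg
A match is a description of these letters, and whether any is bound in KMS-27 cells was not tested.

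FPKM and the spike-in scale answer different questions. FPKM gives each gene relative to the others in all 6 libraries. The spike-in scale sets gene reads against added external RNA (92 ERCC transcripts), so that a change of all genes together can be seen, but siChe-1 replicate 3 is not in that table and only 5 libraries enter. That library had 379232 spike-in reads, against 835414 and 1041244 in the other siChe-1 libraries and 351573 to 519573 in siControl. The 5 libraries held 19169774 to 21780505 recovered gene reads, with 22.9 and 19.4 gene reads per spike-in read in siChe-1 and 38.8 to 57.9 in siControl. Genes whose reads could not be recovered are left out of these totals. They held 19.7% of siControl and 18.8% of siChe-1 normalized reads. In bulk RNA, fewer cells of a kind and less RNA per cell cannot be told apart. AATF averaged 15.1 ± 1.57 FPKM in siChe-1 and 102 ± 15.5 FPKM in siControl (SD, n = 3 each), and its log2(FPKM + 1) fell by 2.57 ± 0.11 (SE, limma adjusted p 0.000117). All 8 plasma cell markers were listed, with a summed FPKM of 8690 to 12177 in siChe-1 and 7324 to 10728 in siControl. IGJ alone averaged 9229 FPKM over the 6 libraries, so the sum mostly follows that gene. Of the rest, CD38 rose by 0.74 (limma adjusted p 0.00430), while XBP1 changed by -0.47 (0.0201) and MZB1 by -0.46 (0.0398). The other markers were not called. None of the 4 mature B cell, 4 T cell, 3 epithelial or 3 fibroblast markers was listed with an FPKM, and CD68 alone of 4 monocyte markers (mean 0.928 FPKM) and HBB alone of 3 erythroid markers (0.279 FPKM) were.

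Relative to other genes, 3 of the 10 transporters fell and none rose. These were SLC43A1, SLC38A1 and SLC7A6, by limma on log2(FPKM + 1) with an adjusted p under 0.05 over all 6285 genes tested. The limma changes are from libraries rescaled by the median of ratios, while printed FPKM and their overlaps are as deposited. On the deposited scaling the median change of all tested genes was -0.09, so a limma change can differ from that of the printed FPKM. The share of all tested genes called lower was 15.1%, the share called higher was 15.1%, and the 2 together came to 30.2%. The median change of the 10 was 0.04 on the log2 scale, and that of all tested genes was 0.00. Taken as a share of all FPKM, the 10 genes held 0.188%, 0.182% and 0.206% in siChe-1 and 0.184%, 0.184% and 0.177% in siControl, ranges that overlap.

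**Figure D1:**
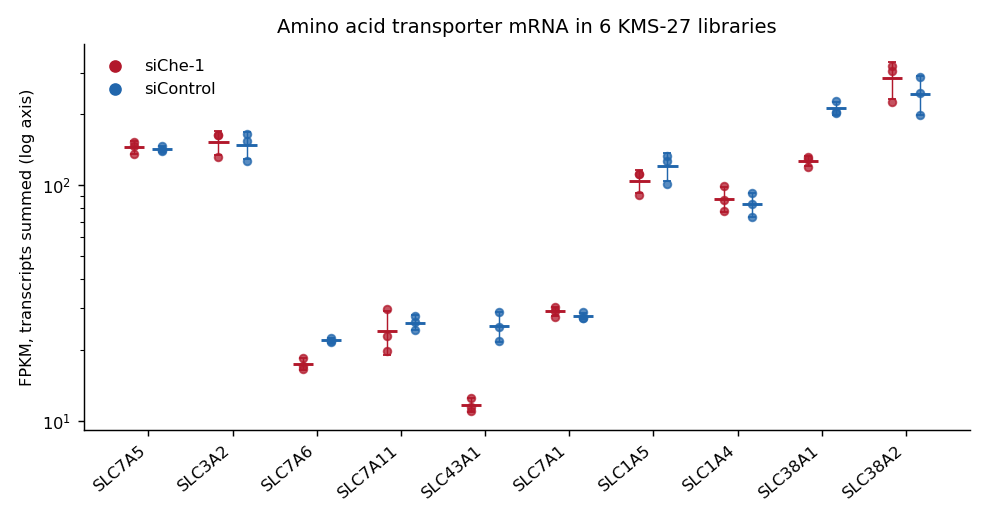
FPKM of the 10 transporters (transcripts summed by gene, log axis) in 3 siChe-1 libraries (red, left of each pair) and 3 siControl libraries (blue), with points for libraries, short lines for means and bars for SD. The groups are apart for SLC7A6, SLC43A1 and SLC38A1, all lower in siChe-1, and overlap for the other 7 genes. Of all 6285 tested genes 30.3% were apart with siChe-1 lower and 14.9% with siChe-1 higher, so 3 of 10 is near the share of all genes. These FPKM and overlaps are on the deposited scaling, while the limma calls use rescaled libraries.

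Neither the heavy chain nor SLC7A5 was called. SLC3A2 (hg19 chromosome 11, 62623484 to 62656355, plus strand) had 132, 163 and 163 FPKM in siChe-1 and 126, 165 and 155 FPKM in siControl. The groups overlapped, with a low library in each, and the difference was 0.13 ± 0.14 on the log2(FPKM + 1) scale (SE, limma adjusted p 0.507). SLC7A5 (chromosome 16, 87863629 to 87903100, minus strand) had 135, 147 and 152 FPKM in siChe-1 and 141, 147 and 139 FPKM in siControl, a difference of 0.11 ± 0.09 (limma adjusted p 0.380). Here too the groups overlapped. SLC7A5 has near-identical pseudogenes, so its level is uncertain by the reads they may share. SLC7A5P1 averaged 7.57 ± 1.02 FPKM in siChe-1 and 9.52 ± 0.67 FPKM in siControl, and SLC7A5P2 averaged 11.5 ± 1.82 FPKM in siChe-1 and 9.29 ± 0.95 FPKM in siControl (SD, n = 3 each).

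Of the other CD98 light chains, SLC7A6 fell slightly. SLC7A6 (chromosome 16, 68298419 to 68344868, plus strand) had 17, 16.6 and 18.5 FPKM in siChe-1 and 21.5, 21.8 and 22.4 FPKM in siControl. Every siChe-1 library lay below every siControl library, and the change was -0.23 ± 0.07 (SE, limma adjusted p 0.0402). The call was lost when any 1 of the 6 libraries was left out (limma adjusted p 0.0700 to 0.118) and with upper quartile scaling (0.108). The locus also holds SLC7A6OS, at 15.5 ± 1.07 FPKM in siChe-1 and 17.6 ± 2.86 FPKM in siControl (SD, n = 3 each), with a change of -0.08 ± 0.11 (limma adjusted p 0.634). The sources used here do not state whether strand was used in counting, so reads of overlapping genes cannot be told apart.

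SLC7A11, the cystine transporter (chromosome 4, 138948577 to 139163503, minus strand), had 22.9, 19.8 and 29.7 FPKM in siChe-1 and 27.9, 26.2 and 24.2 FPKM in siControl. The siChe-1 libraries spanned the whole siControl range, with a difference of -0.04 ± 0.14 (SE, limma adjusted p 0.868). The deposited locus includes LOC641364, at 2.87 ± 1.08 FPKM in siChe-1 and 2.06 ± 0.13 FPKM in siControl (SD, n = 3 each). The 3 light chains summed came to 1.33, 1.12 and 1.23 times the FPKM of SLC3A2 in siChe-1 and 1.51, 1.18 and 1.20 times in siControl.

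SLC43A1, which needs no heavy chain, showed the largest fall of the 10. SLC43A1 (chromosome 11, 57252004 to 57283192, minus strand) had 11.0, 11.4 and 12.5 FPKM in siChe-1 and 24.9, 21.8 and 28.9 FPKM in siControl. The groups were far apart, at means of 11.6 ± 0.80 FPKM in siChe-1 and 25.2 ± 3.58 FPKM in siControl (SD, n = 3 each). The change was -0.96 ± 0.10 (SE, limma adjusted p 0.000969) and was called in each of the 11 other settings on FPKM.

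The arginine and lysine carrier SLC7A1 (chromosome 13, 30083551 to 30169825, minus strand) had 27.6, 29.3 and 30.3 FPKM in siChe-1 and 27.4, 28.8 and 27.2 FPKM in siControl. The groups overlapped, with a difference of 0.15 ± 0.07 (SE, limma adjusted p 0.159). Compared by list position, SLC7A1 was higher in siChe-1 each time, but no label pairs the positions and pairing was not tested.

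The paired neutral amino acid exchangers were not called. SLC1A5 (chromosome 19, 47278140 to 47291842, minus strand) had 90.5, 112 and 111 FPKM in siChe-1 and 102, 134 and 127 FPKM in siControl, a difference of -0.11 ± 0.14 (SE, limma adjusted p 0.581). SLC1A4 (chromosome 2, 65215579 to 65251000, plus strand) had 86.3, 77.4 and 99.1 FPKM in siChe-1 and 83.1, 73.4 and 92.6 FPKM in siControl, a difference of 0.17 ± 0.11 (limma adjusted p 0.287). In both genes the groups overlapped. Compared by list position, SLC1A5 was lower and SLC1A4 higher in siChe-1 each time. No label pairs the positions, and limma was fitted without pairing, so a paired difference was not tested.

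The glutamine carriers SLC38A1 and SLC38A2 lie close together on the minus strand of chromosome 12. SLC38A1 fell, and SLC38A2 was not called. SLC38A1 (46576841 to 46663208) had 129, 119.8 and 132 FPKM in siChe-1 and 228, 203 and 205 FPKM in siControl. SLC38A2 (46751971 to 46766645) had 322, 226 and 305 FPKM in siChe-1 and 289, 198 and 246 FPKM in siControl. For SLC38A1 every siChe-1 library lay below every siControl library, while for SLC38A2 the groups overlapped. Compared by list position, SLC38A2 was higher in siChe-1 each time, but no label pairs the positions and pairing was not tested. The change of SLC38A1 was -0.64 ± 0.09 (SE, limma adjusted p 0.00305), called in each of 11 other settings on FPKM, and that of SLC38A2 was 0.31 ± 0.17 (limma adjusted p 0.214).

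The ratio of these paralogs was lower in every siChe-1 library, a difference that did not pass the adjusted test. SLC38A1 over SLC38A2 was 0.401, 0.529 and 0.434 in siChe-1 and 0.788, 1.03 and 0.833 in siControl. The groups did not overlap, and the log2 ratio was 0.96 lower in siChe-1 (two-sided exact permutation p = 0.1, which is the minimum for 3 against 3, and 0.25 adjusted over 5 ratios). SLC7A6 over SLC3A2 was 0.129, 0.102 and 0.114 in siChe-1 and 0.170, 0.132 and 0.145 in siControl, also without overlap, at a log2 difference of -0.37 (exact p = 0.1, adjusted 0.25). SLC7A5 over SLC3A2 (-0.02, exact p = 0.9), SLC7A11 over SLC3A2 (-0.17, exact p = 0.6) and SLC1A5 over SLC1A4 (-0.28, exact p = 0.3) overlapped between the groups, with adjusted p of 0.9, 0.75 and 0.5.

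The order of the levels differed little outside these genes. In siControl SLC38A2 (244 ± 45.7 FPKM) and SLC38A1 (212 ± 13.6) led and overlapped, followed by SLC3A2, SLC7A5 and SLC1A5 between 121 and 149 FPKM on average. In siChe-1 SLC38A2 (284 ± 50.9) stood alone above SLC3A2 and SLC7A5, and SLC38A1 (127 ± 6.44) came below both on average, its highest library just past the lowest of SLC3A2. SLC1A4 followed at 87.6 ± 10.9 FPKM in siChe-1 and 83 ± 9.61 FPKM in siControl. SLC7A1, SLC7A11, SLC43A1 and SLC7A6 made up the low end, between 21.9 and 27.8 FPKM on average in siControl with each neighbour in the order overlapping. In siChe-1 SLC43A1 was the lowest, under every library of SLC7A6 (all values SD, n = 3).

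Transcripts of the genes with several isoforms were tested over 15089 transcripts, of which 5.39% were called lower and 4.37% higher. Of the 20 transcripts of the 10 genes, 2 fell and none rose, both of SLC38A1. NM_001077484 had 107, 87.2 and 107 FPKM in siChe-1 and 187, 147 and 161 FPKM in siControl (-0.67 ± 0.14, limma adjusted p 0.0389). NM_030674 had 21.6, 32.5 and 24.9 FPKM in siChe-1 and 40.2, 56.4 and 44.4 FPKM in siControl (-0.78 ± 0.18, limma adjusted p 0.0482). Neither pair of groups overlapped, and NM_001077484 made up 79.2% of SLC38A1 in siChe-1 and 77.8% in siControl. Without siControl list position 2, 1 transcript of the 20 was called, and none was when any of the other 5 libraries was left out.

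The transcripts of SLC43A1 and SLC3A2 were not called. NM_001198810, 85.6% of SLC43A1 in siChe-1 and 83.4% in siControl, had 9.19, 8.95 and 11.8 FPKM in siChe-1 and 22.1, 14.5 and 26.5 FPKM in siControl, which did not overlap (-0.94 ± 0.22, limma adjusted p 0.0511). In the authors' deposited table it had a q of 0.000601, as did NM_001077484, and NM_030674 had 0.0753. NM_001013251, the leading transcript of SLC3A2, made up 80.4% of the gene in siChe-1 and 73.5% in siControl (0.21 ± 0.11, limma adjusted p 0.292).

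**Figure D2:**
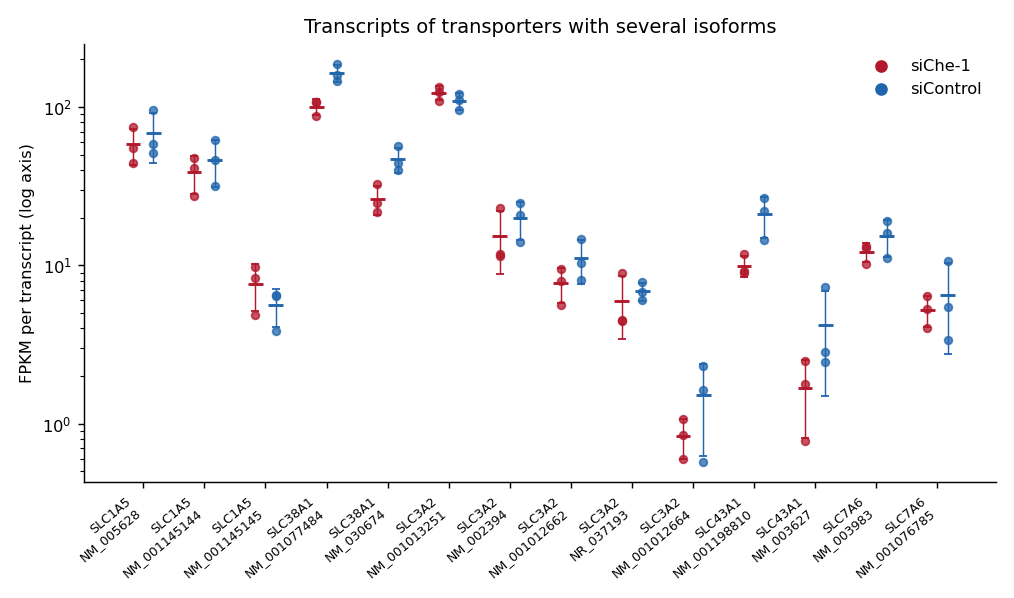
FPKM of single transcripts (log axis) of 5 of the 6 transporters with several isoforms, in siChe-1 (red, left of each pair) and siControl (blue), 3 libraries each, with means and SD. Both SLC38A1 transcripts and the leading SLC43A1 transcript have groups that do not overlap, lower in siChe-1.

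Against the spike-ins all 10 genes were lower in siChe-1, as were most genes. Whole reads per library could be recovered from the authors' means for 9 of them. Every siChe-1 library lay below every siControl library in all 9, as in 89.5% of the genes tested (0.457% had every siChe-1 library higher), and edgeR called all 9 lower, beside 84.3% of the 12468 genes tested (0.192% were called higher). A library's spike-in factor is common to all its genes, so these 9 calls are not independent of one another. The median change of these 9 was -1.22, and that of all genes tested was -1.24. SLC43A1 had 530 and 387 normalized reads in siChe-1 replicates 1 and 2 and 1711, 2330 and 2681 in siControl replicates 1 to 3, 20.5% of siControl on average (-2.29 ± 0.37, edgeR adjusted p 4.42e-08). SLC7A6 had 1223 and 951 in siChe-1 and 2606, 4124 and 4425 in siControl, 29.2% (-1.77 ± 0.35, edgeR adjusted p 4.70e-06).

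The other 7 lay nearer to the median of all genes. SLC38A2 had 13142 and 10025 normalized reads in siChe-1 and 20754, 24152 and 29486 in siControl (46.7%), and SLC7A5 had 11676 and 7406 in siChe-1 and 16961, 24218 and 22923 in siControl (44.7%). SLC3A2 had 3952 and 3450 in siChe-1 and 5581, 10871 and 9441 in siControl (42.9%). SLC7A1 stood at 45.1% and SLC1A4 at 43.7% of siControl, SLC1A5 at 35.4% and SLC7A11 at 35.0%. Their log2 changes were between -1.10 and -1.52. Without siChe-1 replicate 2, which left a single siChe-1 library, the log2 changes of the 9 were between -0.87 (SLC7A5) and -2.08 (SLC43A1). With median of ratios scaling edgeR called 2 of the 9 lower, beside 1889 of all 12468 genes tested lower and 1712 higher.

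**Figure D3:**
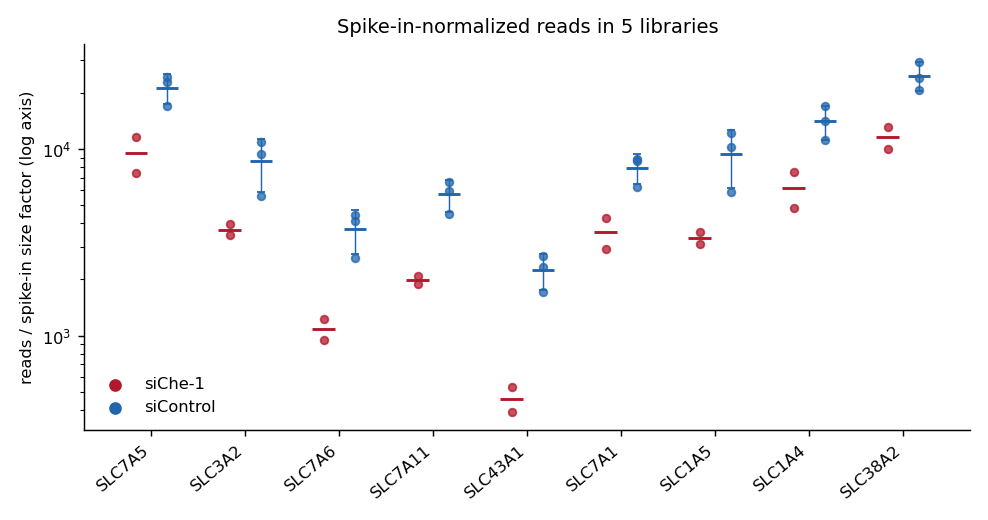
Reads divided by the spike-in size factor (log axis) for the 9 transporters with recovered reads, in 2 siChe-1 libraries (red, left of each pair) and 3 siControl libraries (blue), with group means and, for siControl, SD. In each of the 9 genes both siChe-1 libraries lie below the 3 siControl libraries, as in 89.5% of all genes tested.

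SLC38A1 allowed several sets of reads in siControl. Its siChe-1 reads were 14369 and 12167 after normalization, and 3 of the 13 possible siControl sets had shares between libraries like those of other abundant genes. The set nearest to them was 42700, 58350 and 60852. The authors' deposited table gives means of 13268 in siChe-1 and 53967 in siControl, a log2 change of -2.02 (the authors' adjusted p 6.32e-05). Of the 10 genes, 9 passed an adjusted p of 0.05 in the authors' deposited table, all lower, against 63.5% of 12591 genes called lower and 0.0635% higher. The exception was SLC3A2, with a log2 change of -1.22 and an adjusted p of 0.0528 in the authors' deposited table. The median of the 10 was -1.36 and that of all genes -1.25 in the authors' deposited table.

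With TMM, which sets most genes near no change, the recovered reads of these 5 libraries gave 2 of 9 genes called lower and none higher, beside 15.3% of genes lower and 13.5% higher. SLC43A1 changed by -1.06 ± 0.12 (edgeR adjusted p 8.80e-05) and SLC7A6 by -0.53 ± 0.11 (0.00321). The nearest set for SLC38A1 gave -0.79 ± 0.10 (edgeR adjusted p 0.000144), and the others -0.77 and -0.82. SLC7A11 had -0.28 ± 0.10 (0.0579) and SLC1A5 -0.23 ± 0.13 (0.209). The remaining 5 were between 0.02 and 0.12 and not called. The FPKM and TMM values come from overlapping libraries and are not independent.

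**Figure D4:**
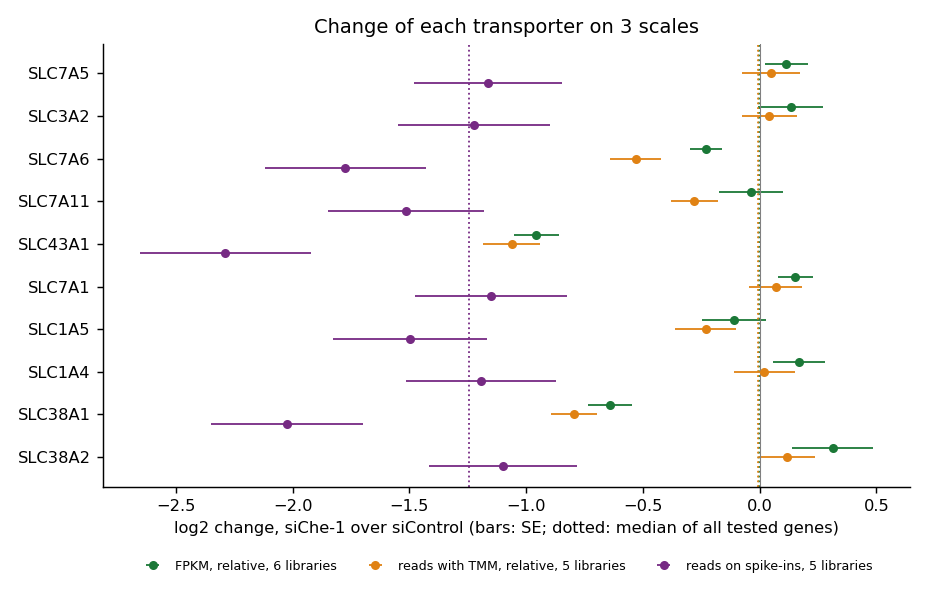
Log2 change (siChe-1 over siControl, bars SE) of each transporter on FPKM in 6 libraries (green), on reads of 5 libraries with TMM (orange) and on reads set against spike-ins (purple), with dotted lines at the median of all tested genes on each scale. SLC43A1 and SLC38A1 lie farthest left of the median on each scale, with SLC7A6 nearer to it. SLC38A1 reads use the set nearest to other genes.

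Further transporters, listed as those of the plasma membrane, moved both ways or were not called. Where each of them lies in the cell was not checked, and some may act inside it. Counts on FPKM stand beside 15.1% of all tested genes called lower and 15.1% called higher. Of 12 other genes of families 7 and 43, with the heavy chain SLC3A1, 1 was tested on FPKM and fell: SLC43A3, a relative of SLC43A1 that carries purine bases, with 27.8 ± 1.39 FPKM in siChe-1 and 60.1 ± 8.96 FPKM in siControl (-0.98 ± 0.10, limma adjusted p 0.000969). Of 28 others, 5 were tested, 2 fell and 1 rose. With TMM, where genes of lower level were tested too, 12 were tested, 5 were called lower and 2 higher. Beside these stand 15.3% of all genes lower and 13.5% higher with TMM. SLC38A5, a glutamine carrier of the SLC38 family, had 44.7 ± 1.5 FPKM in siChe-1 and 105 ± 12.4 FPKM in siControl (-1.12 ± 0.09, limma adjusted p 0.000543), and SLC6A15, a carrier of branched chain amino acids and proline, changed by -1.15 ± 0.12 (0.00115). SLC38A6 (-0.27 ± 0.10, limma adjusted p 0.0814) and SLC38A10 (0.28 ± 0.16, 0.229), also of the SLC38 family, were not called. SLC6A9, a glycine carrier named as the only rise on FPKM, changed by 0.60 ± 0.16 (limma adjusted p 0.0272). SLC43A2 (LAT4) had 0.786 ± 0.20 FPKM in siChe-1 and 1.18 ± 0.26 FPKM in siControl, SLC7A7 had 0.536 ± 0.46 FPKM in siChe-1 and 0.280 ± 0.37 FPKM in siControl, and SLC1A3 had 0.157 ± 0.14 FPKM in siChe-1 and 1.12 ± 0.26 FPKM in siControl (SD, n = 3 each). All 3 were too low in FPKM to be tested by limma. Their log2 changes in the authors' deposited table were -1.87 (the authors' adjusted p 0.00924), 0.05 (0.915) and -3.56 (8.90e-05), in that order. With TMM they were -0.63 (edgeR adjusted p 0.0883), 1.35 (0.0163) and -2.31 (0.000183). SLC7A8 (LAT2) was not listed with an FPKM and had a log2 change of -0.32 and an adjusted p of 1 in the authors' deposited table.

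Transporters inside the cell were mixed, as were all genes tested on FPKM (15.1% lower and 15.1% higher). Of 14 lysosomal transporters 5 were tested and 2 rose: SLC17A5, which exports sialic acid, by 0.37 ± 0.09 (limma adjusted p 0.0192) and SLC38A9, an arginine sensor, by 0.27 ± 0.07 (0.0193), calls that ended on the deposited scaling and that TMM did not make. The list had 0 calls without siChe-1 list position 1 or 3, and 1 without siChe-1 or siControl list position 2. Of 14 mitochondrial carriers 4 were tested on FPKM, 3 fell and 1 rose. With TMM, where genes of lower level were tested too, 4 of 10 mitochondrial carriers and 3 of 11 lysosomal transporters were called lower. None of either list was called higher with TMM, beside 15.3% of all genes lower and 13.5% higher. SLC25A13, the aspartate-glutamate carrier, changed by -0.91 ± 0.10 (limma adjusted p 0.00128) and SFXN1, a serine carrier, by -0.64 ± 0.08 (0.00166).

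Lists of genes that respond to or sense amino acids had calls in both directions, as did all genes tested (15.1% higher and 15.1% lower). Of 44 ATF4 and amino acid response genes 40 were tested, 9 rose and 3 fell, with a median of 0.10. CTH, of cysteine synthesis, rose by 0.68 ± 0.07 (limma adjusted p 0.000969) and ALDH1L2, of mitochondrial folate metabolism, by 0.62 ± 0.09 (0.00263). ASNS, asparagine synthetase, had 387 ± 26.2 FPKM in siChe-1 and 458 ± 46.6 FPKM in siControl (-0.15 ± 0.11, limma adjusted p 0.344). Among the falls of this list, CBS had the smallest p (-0.64 ± 0.09, limma adjusted p 0.00346). Of 46 genes of amino acid sensing to mTORC1 25 were tested, 6 rose and 4 fell, with a median of 0.08. RHEB, the GTPase that activates mTORC1, had 91.1 ± 8.82 FPKM in siChe-1 and 271 ± 39.8 FPKM in siControl (-1.46 ± 0.12, limma adjusted p 0.000618), and SEH1L, a GATOR2 subunit, changed by -0.73 ± 0.08 (0.00109). Among the rises of this list, RRAGD had the smallest p (0.67 ± 0.08, limma adjusted p 0.00140). Without siChe-1 list position 3, 6 genes were called in the first list and 6 in the second, against 12 and 10 with all libraries. These rises are relative to other genes: on the spike-ins CTH had -0.77 in the authors' deposited table, with an adjusted p of 0.112.

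Lists of genes that use the transported amino acids are read against the 30.2% of all genes called in either direction. Of 27 genes of glutamine and branched chain amino acid use 18 were tested, 1 rose and 1 fell: GFPT1, which uses glutamine to make hexosamines, changed by 0.34 ± 0.09 (limma adjusted p 0.0237) and GOT2, mitochondrial aspartate aminotransferase, by -0.50 ± 0.08 (0.00442). In that list 1 gene was called without siChe-1 list position 1, without siChe-1 list position 3 or without siControl list position 3. Of the 19 other genes of cystine and glutathione use 12 were tested, 4 fell and none rose, with a median of -0.08, and 2 were called without siChe-1 list position 3. CHAC2, which degrades glutathione, changed by -0.54 ± 0.09 (limma adjusted p 0.00522), TXNRD1, thioredoxin reductase, by -0.42 ± 0.08 (0.00747) and TXN, thioredoxin, by -0.50 ± 0.10 (0.0109). Of 18 regulators named for these genes 10 were tested, 1 rose and 3 fell. MYC had 145 ± 7.35 FPKM in siChe-1 and 293 ± 14.7 FPKM in siControl (-0.92 ± 0.10, limma adjusted p 0.00109), and its partner MAX changed by -0.53 ± 0.11 (0.00990). Against the spike-ins none of these 9 lists had a gene called higher in the authors' deposited table, where 0.0635% of all genes were.

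**Figure D5:**
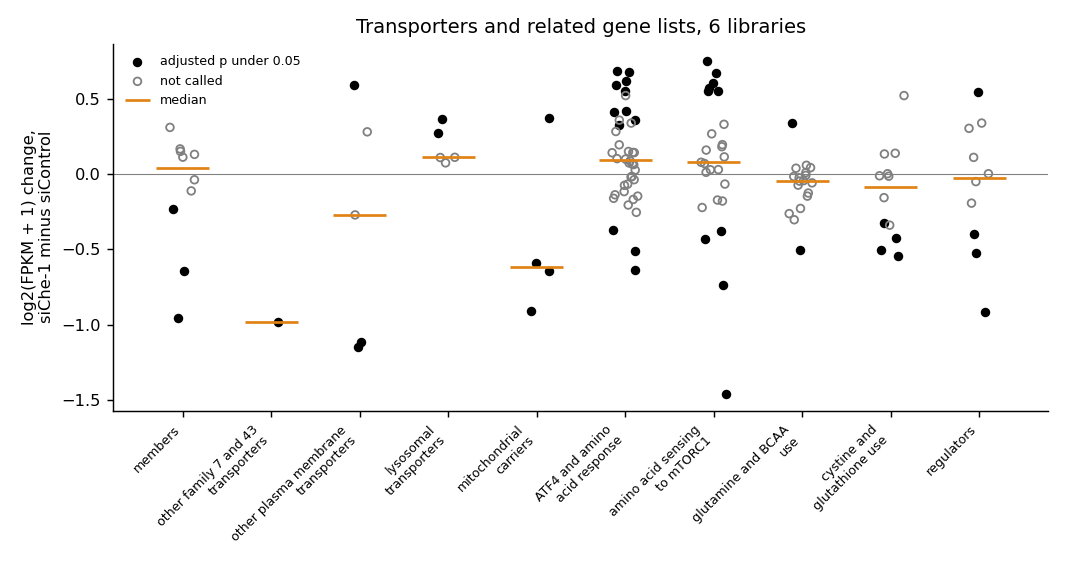
Log2(FPKM + 1) change, siChe-1 minus siControl, of every tested gene in the 10 transporters (members) and 9 related lists, with filled points for limma adjusted p under 0.05, open points for genes not called and a line at each list's median. The 10 transporters have 3 filled points, all below 0, and the ATF4 and mTORC1 lists have filled points on both sides.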

How the data were processed

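RNA-seq of 3 siChe-1 and 3 siControl libraries of KMS-27 was analysed. Members and lists were chosen with earlier results of these data known. Libraries were made from total RNA after ribosomal depletion, per the labels' protocols. The submitters' processing notes name hg19, DESeq2, HTSeq, TopHat, Cufflinks and Cuffdiff, without versions or roles.

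The authors deposited raw read counts of 92 spike-ins in each library. Their comparison table, per the file headers, holds a signal (reads over spike-in size factor, averaged by group), a ratio (fold change), its log2, and p-values with adjusted p. Another deposited table, per the file headers, lists 18750 transcripts with FPKM, 3 values per group without replicate numbers, a log2 ratio, and p-values and q-values.

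Low means in the comparison table (2139 in siChe-1, 1327 in siControl) were 100% whole reads with siChe-1 replicates 1 and 2, and 0% with any other siChe-1 set, at a relative tolerance of 8e-15. Whole reads were recovered for 16321 of 16444 genes (99.3%). The 123 genes left out allowed several sets and held 19.7% of siControl and 18.8% of siChe-1 normalized reads. Recovered reads were tested by edgeR 4.0.16 quasi-likelihood on spike-in size factors, with a mean of at least 10, and by TMM. FPKM summed by gene (assembled chromosomes, mean of at least 10, median of ratios) was tested by limma 3.58.1 with a trend on log2(FPKM + 1), and transcripts likewise with a mean of at least 1. The pseudocount of 1 understates changes of low genes. p-values are two-sided, Benjamini-Hochberg adjusted over all genes, at 0.05. Ratios had exact permutation tests. On simulated data with known changes, limma (6285 genes) recovered 40% of changes of 0.5 and 90% of 1 (log2), and edgeR (12468 genes) 29.5% and 84.5%. False calls were 0 and 4 with limma, and 4 and 26 with edgeR. Both simulations drew noise separately for each gene and library, without deviations that many genes of a library share. The limma rates are therefore not those of the test on the real FPKM. The edgeR simulation took the spike-in factors as exact and its spread from reads scaled by library size. It leaves out spread that the factors add, so its rates are not those of the spike-in test on the real reads.

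The planned spike-in test holds for 9 genes: SLC38A1 allowed several sets of reads, so 3 sets were tried, chosen after seeing the data. Named list genes are the 2 with the smallest limma p and the most abundant, plus partners and paralogs. SLC6A9, SLC38A6, SLC38A10, CBS and RRAGD were named after their values were seen. Loci are from the deposited table, on hg19. Alternatives were other scalings, filters, pseudocounts, DESeq2 1.42.0, a replicate block and leaving out each library.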

Additional observations from a re-analysis of the deposited data

How the results depend on the processing

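Of the 10 transporters, the calls of SLC43A1 and SLC38A1 on FPKM held in all 11 other settings. That of SLC7A6 held in 4 of 11, and the count called was 2 when any library was left out. With TMM on the recovered reads, the log2 change of SLC7A6 stayed between -0.58 and -0.47 with a library left out. On the spike-in reads 9 were called, against 2 with TMM, 2 with median of ratios and 0 with the replicate block, under which 59 genes of all were called (member adjusted p by edgeR 0.228 to 0.285). Leaving out 1 library gave 4 to 9, the lowest without siChe-1 replicate 2. The numbers give 2 pairs, whose deviations correlate at 0.233 over 12468 genes, and no label says that they pair cultures. In the authors' table at 0.01 the count was 5. Of the transcripts, 0 to 1 were called with a library left out.

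SLC7A11 on FPKM changed sign with upper quartile scaling (0.026) and between -0.17 and 0.089 with a library left out. On spike-in reads SLC7A5, SLC3A2, SLC7A1, SLC1A4 and SLC38A2 turned to 0.049, 0.041, 0.068, 0.019 and 0.12 with TMM, and to 0.050, 0.044, 0.069, 0.020 and 0.12 with median of ratios, which by construction set the median gene near 0. With TMM and a library left out, SLC7A5 was -0.16 to 0.24, SLC3A2 -0.042 to 0.14, SLC7A1 -0.081 to 0.22 and SLC1A4 -0.18 to 0.20. The log2 ratio of SLC7A5 over SLC3A2 was -0.077 to 0.088 with a library left out, and that of SLC7A11 over SLC3A2 -0.28 to 0.013.

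Over all genes, 1897 called on FPKM became 2934 at a minimum of 1, 3044 without a filter and 984 to 1743 with a library left out. The 949 higher and 948 lower became 592 and 1279 on the deposited scaling, which shifts the median by -0.09, and 1221 and 713 with upper quartile scaling. On spike-in reads 10532 became 3585 with TMM and 2824 without siChe-1 replicate 2. With TMM, 3585 became 2050 to 4139 with a library left out. At a minimum of 1 and without a filter, more genes of the lists were tested: calls among the other plasma membrane transporters went to 6 and 9, against 3, and among the lysosomal ones to 4 and 4, against 2. Other causes were not tested.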
